A study of Mus musculus with 18 samples.

Results

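The scavenger and C-type lectin pattern receptors are 9 genes, Marco, Msr1, Cd36, Olr1, Clec4d, Clec4e, Clec4n, Clec7a and Colec12, of the 36172 genes in the deposited matrix. They were chosen by gene symbol, with earlier results of these data known, and the spread of Marco between the LPS animals was itself part of the choice. Marco is therefore given as a description with no test. Olr1 did not pass the filter on low counts. The p-values of the other 7 genes come from a fit across all genes, and they are not evidence independent of that choice.

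RNA was collected from 9 Cx3cr1-cre/ERT2+; NuTRAP+ mice (6 females and 3 males, about 3 months old), in which tamoxifen given on 5 days induces Cre under the Cx3cr1 promoter and Cre switches on EGFP-tagged ribosomes. The mice carried 1 knocked-in Cre allele at Cx3cr1 and 1 NuTRAP allele, and this genotype and the tamoxifen were shared by both treatments. At 3 to 4 weeks after tamoxifen, 5 animals (266, 267, 270, 271 and 507) received 1 intraperitoneal injection of LPS at 5 mg/kg and 4 animals (268, 272, 273 and 506) received PBS, the vehicle. After 24 h the lysate of a hemisected brain was sampled as Input, which holds RNA of all cell types, and EGFP-tagged ribosomes were pulled from the rest with an anti-GFP antibody, which gave the Positive fraction. The Cx3cr1 promoter is active in microglia, in macrophages at the borders of the brain and in monocytes. The tag is therefore not limited to microglia. To avoid labelling circulating monocytes, which are short-lived, the paper waited 3 to 4 weeks after tamoxifen. Whether tagged monocytes remained was not tested. No cells were sorted.

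The Input library of animal 271 held 1252 estimated counts and was left out, which left 4 Input LPS, 4 Input PBS, 5 Positive LPS and 4 Positive PBS libraries. The other 17 libraries held 22968939 to 35123345 estimated counts. Levels are normalised counts, the estimated count divided by the size factor of the library, and 3 counts, taken as the floor of detection, equal 2.27 to 3.92 normalised counts. A gene was called where edgeR's quasi-likelihood test gave a Benjamini-Hochberg adjusted p below 0.05 over 14803 tested genes and the change was over 25%. All 10 microglial markers on the list used here were higher in Positive than in Input of the same treatment, with a median log2 fold change of 4.22 in PBS animals and 4.03 in LPS animals. Because these are bulk fractions, fewer cells of a type and less RNA per cell cannot be told apart.

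Pattern receptors bind molecules that are common to microbes or to damaged cells and debris. Scavenger receptors take up modified lipoproteins, bacteria and debris, and MARCO and MSR1 are trimeric class A members carried mainly by macrophages. C-type lectin receptors bind sugars or lipids of fungi and mycobacteria, and the activating ones signal through the adaptor FcRγ (encoded by Fcer1g) or their own tail to the kinase Syk and on to CARD9, BCL10 and MALT1. Microglia, the resident macrophages of the brain, use both families in phagocytosis.

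The 9 genes split by LPS response (plot of levels by library). Marco, Msr1, Clec4d and Clec4e were far higher in Positive LPS than in Positive PBS libraries, by 7.42, 5.67, 5.52 and 5.30 on the log2 scale. Cd36 and Clec7a fell in the Positive fraction, by 1.48 and 1.55 on the log2 scale. Clec4n and Colec12 were not called, and Olr1 held 12.0 to 22.0 estimated counts in 3 of 5 Positive LPS libraries and at most 4.25 in all others. Of the 7 tested genes other than Marco, 3 (Msr1, Clec4d and Clec4e) were called raised and 2 lowered in the Positive fraction, where 19.0% of all tested genes were called raised and 14.9% lowered. In Input 3 were called raised and 0 lowered, against 7.16% and 5.26% of all tested genes. The filter asks for over 20 normalised counts in every library of at least 1 group. Clec4d and Clec4e passed it only through the Positive LPS group where they are high, so their calls in the Positive fraction are no support for a rise. Their calls in Input carry this limit too, since the Input LPS libraries came from the same animals. Msr1, Cd36 and Clec7a are the other genes called in the Positive fraction, and Msr1 is the other gene called in Input.

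**Figure D1:**
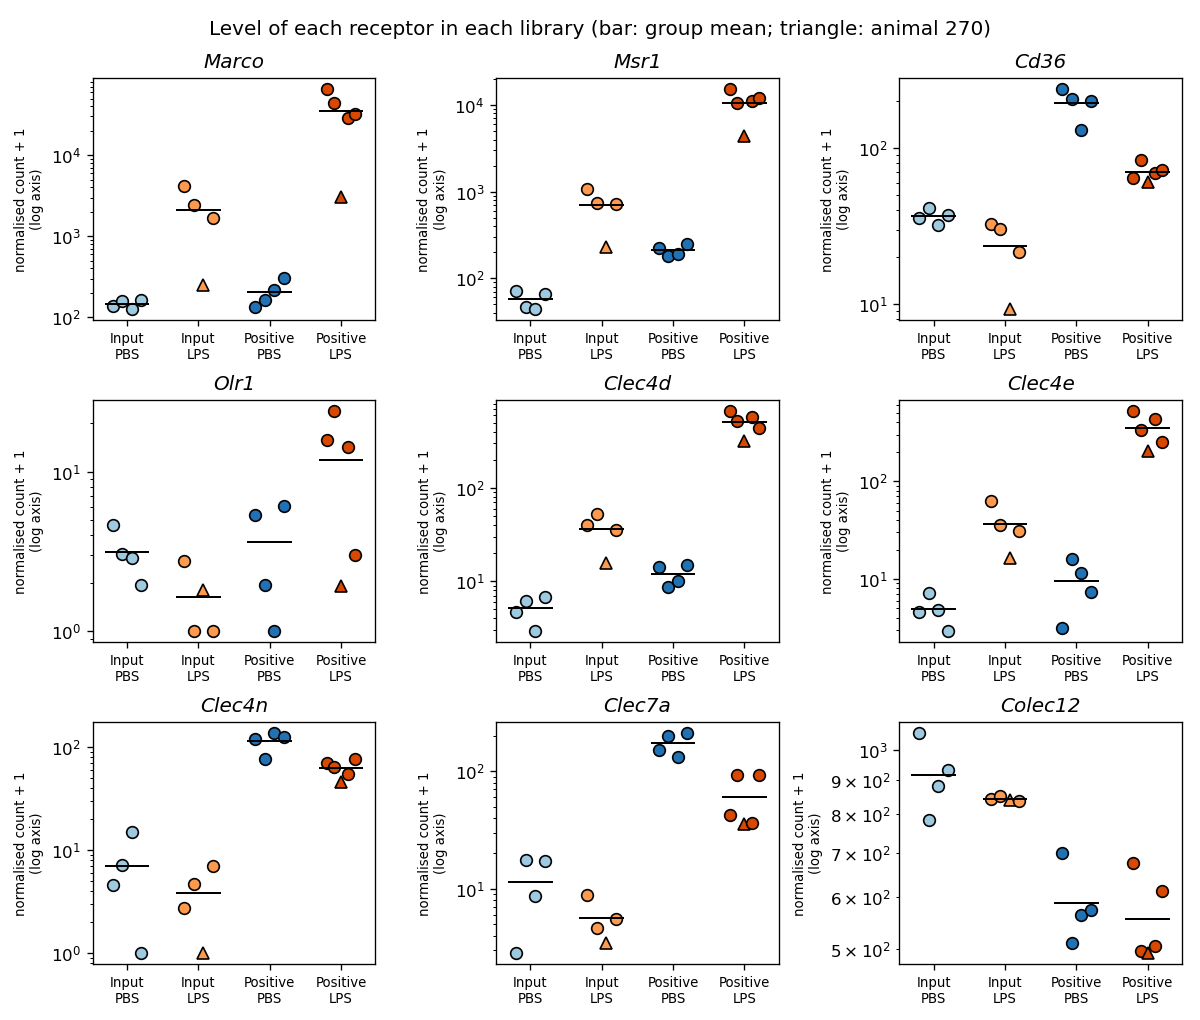
Normalised count plus 1 (log axis) of each of the 9 receptors in 17 libraries, by fraction and treatment, with the group mean as a bar and animal 270 as a triangle. Marco, Msr1, Clec4d and Clec4e sit highest in Positive LPS, and Cd36, Clec4n and Clec7a sit highest in Positive PBS. Animal 270 is the lowest of the 5 Positive LPS libraries in every panel, narrowly for Cd36, Olr1, Clec7a and Colec12.

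On chromosome 6 lie 5 of the genes, in 2 C-type lectin clusters. The promoters of Marco, Clec4d and Clec4e, which were higher with LPS, and of Clec7a, which was lower, are shown so that the sequence before each start can be read beside its response. RefSeq promoters (GRCm38.p6) were found for 6 of the 8 genes looked up. The sequences give the bases before the start on the strand of the gene, without bases that lie inside the gene model of the deposited matrix. Capitals mark matches on either strand to GAGGAA, the core bound by the myeloid factor PU.1, or to TTGCNNAA, a C/EBP motif.

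Marco, chr1:120505085-120505274 (minus strand), raised by LPS: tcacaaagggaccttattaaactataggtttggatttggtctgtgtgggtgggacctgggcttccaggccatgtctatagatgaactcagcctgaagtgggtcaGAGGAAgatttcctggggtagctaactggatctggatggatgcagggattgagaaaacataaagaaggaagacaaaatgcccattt
Clec4d, chr6:123261857-123262106 (plus strand), raised by LPS: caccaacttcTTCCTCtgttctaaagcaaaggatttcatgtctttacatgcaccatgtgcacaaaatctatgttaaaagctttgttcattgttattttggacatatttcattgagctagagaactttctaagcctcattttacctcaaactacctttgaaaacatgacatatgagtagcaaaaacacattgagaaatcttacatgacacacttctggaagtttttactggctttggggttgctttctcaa
Clec4e, chr6:123289872-123290121 (minus strand), raised by LPS: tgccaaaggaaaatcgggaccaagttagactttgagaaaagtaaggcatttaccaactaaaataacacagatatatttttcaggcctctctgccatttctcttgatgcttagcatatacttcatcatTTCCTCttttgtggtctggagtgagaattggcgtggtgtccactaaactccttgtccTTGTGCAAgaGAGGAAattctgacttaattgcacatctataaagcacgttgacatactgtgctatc
Clec7a, chr6:129472780-129473029 (minus strand), lowered by LPS in the Positive fraction: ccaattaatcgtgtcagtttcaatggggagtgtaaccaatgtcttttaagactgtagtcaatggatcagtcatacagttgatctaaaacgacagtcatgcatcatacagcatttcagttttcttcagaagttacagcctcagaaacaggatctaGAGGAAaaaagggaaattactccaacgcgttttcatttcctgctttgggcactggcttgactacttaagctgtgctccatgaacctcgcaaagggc

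GAGGAA was present on either strand before all 4 genes shown, whichever way they moved. It is held by 23.3% of 32851 promoter windows of 250 bases. It stood 146 bases before the RefSeq start of Marco, 240 before Clec4d, 56 and 123 before Clec4e, and 96 before Clec7a, counting to the base of the match farthest from the start. TTGCNNAA matched 66 bases before Clec4e only, among these 4, and is found in 9.56% of all windows. No match to the AP-1 motif TGANTCA, the NF-kB motif or the interferon-stimulated response motif was found in the windows of the 4 genes. These motifs are found in 6.75%, 3.90% and 2.98% of all windows. The 4 genes shown are only a part of the 6 with a promoter found. Olr1, which is not shown, held GAGGAA 76 bases and the AP-1 motif 60 bases before its start. No match is given here for the remaining gene, so these promoters do not show that every member holds GAGGAA. A match describes the letters in this window and is not a binding site.

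Marco encodes a class A scavenger receptor that binds bacteria and particles and is known from subsets of tissue macrophages. Its normalised count in Positive PBS libraries was 132 in animal 268, 161 in 272, 215 in 273 and 307 in 506. In Positive LPS libraries it was 64772 in animal 266, 43787 in 267, 32369 in 507, 28975 in 271 and 3038 in 270. The treatments did not overlap, and animal 270 lay at 0.0715 of the mean of the other 4 LPS animals. The fitted log2 fold change was 7.42 (SE 0.85), and it was 7.71 without both libraries of animal 270. In animal 266 Marco stood at rank 9 among all genes of the Positive fraction and took 0.221% of all counts, whereas in animal 270 it stood at rank 2585 with 0.0100%.

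In Input PBS libraries Marco was at 124 to 162 normalised counts, and in Input LPS libraries at 4109 in animal 266, 2401 in 267, 1693 in 507 and 248 in 270. The order of the animals was the one found in the Positive fraction, and animal 270 stayed above every PBS library. The log2 fold change in Input was 3.86 (SE 0.74), and the difference between the fractions was 3.55 (SE 0.97).

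In PBS animals Marco was not enriched on tagged ribosomes to the degree of the microglial markers. Its Positive over Input ratio was 0.970, 1.01, 1.73 and 1.90 in the 4 PBS animals and 12.3 to 19.1 in the 4 LPS animals with both libraries. Animal 270, the lowest in both fractions, had a ratio of 12.3, against 15.8, 18.2 and 19.1 in the other animals.

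The spread of Marco between the LPS animals was part of the choice and is given as a description. The highest Positive LPS library held 21.3 times the lowest, and without animal 270 the ratio was 2.24. The SD of log2(normalised count + 1) over the 5 libraries was 1.73, where the median over 12480 tested genes with a mean of at least 100 in that group was 0.19 and 17 genes had a larger SD. Among the Positive PBS libraries the SD of Marco was 0.53.

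Msr1 encodes the other macrophage class A receptor, which binds acetylated lipoproteins and LPS. Its normalised count was 179 to 246 in the 4 Positive PBS libraries. In the Positive LPS libraries it was 15164 in animal 266, 11908 in 507, 11160 in 271, 10441 in 267 and 4401 in 270. The log2 fold change was 5.67 (SE 0.41, adjusted p = 1.00e-08, edgeR). In Input, Msr1 rose from 42.7 to 71.1 in PBS libraries to 1075, 744, 724 and 231 in animals 266, 267, 507 and 270, and the fitted change was 3.62 on the log2 scale (SE 0.42, adjusted p = 8.94e-06, edgeR). The groups did not overlap in either fraction, and animal 270 was the lowest LPS library in both.

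The LPS response of Msr1 was larger in the Positive fraction than in Input by 2.05 on the log2 scale (SE 0.55, adjusted p = 0.0288, edgeR). This call was lost in 4 of 17 fits that left out 1 library, each of them a PBS library (Input 268, Positive 272, Positive 273 and Input 506, adjusted p from 0.0542 to 0.0694). Of the 7 tested genes other than Marco, 2 (Msr1 and Clec4d) were called raised and 0 lowered in this difference. The shares over all tested genes were 5.46% and 1.42%. The call for Clec4d is no support here, since that gene was tested only through its high Positive LPS group.

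Marco and Msr1 differed in how they spread between animals. The SD of Msr1 over the Positive LPS libraries was 0.68 on the log2 scale, and animal 270 held 0.362 of the mean of the other 4. The ratio of Marco to Msr1 normalised counts in Positive LPS was 4.27, 4.19, 2.72 and 2.60 in animals 266, 267, 507 and 271 and 0.690 in animal 270. In the Positive PBS libraries this ratio was 0.593, 0.899 and 1.14 in animals 268, 272 and 273 and higher still in 506. Animal 270 thus lay within the PBS range of the Positive fraction, but not in Input. The Input ratio was 1.91, 3.50, 2.91 and 2.50 in PBS animals 268, 272, 273 and 506. It was 3.82, 3.23 and 2.34 in LPS animals 266, 267 and 507, which overlapped PBS, and 1.07 in animal 270, below every PBS library. Per kilobase of the longest RefSeq-supported transcript (1925 bases for Marco and 3636 for Msr1), the mean level in Positive LPS was 17968 ± 11696 for Marco and 2919 ± 1077 for Msr1 (SD, n = 5), while in Positive PBS it was 106 ± 40.0 and 57.5 ± 8.43 (SD, n = 4).

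**Figure D2:**
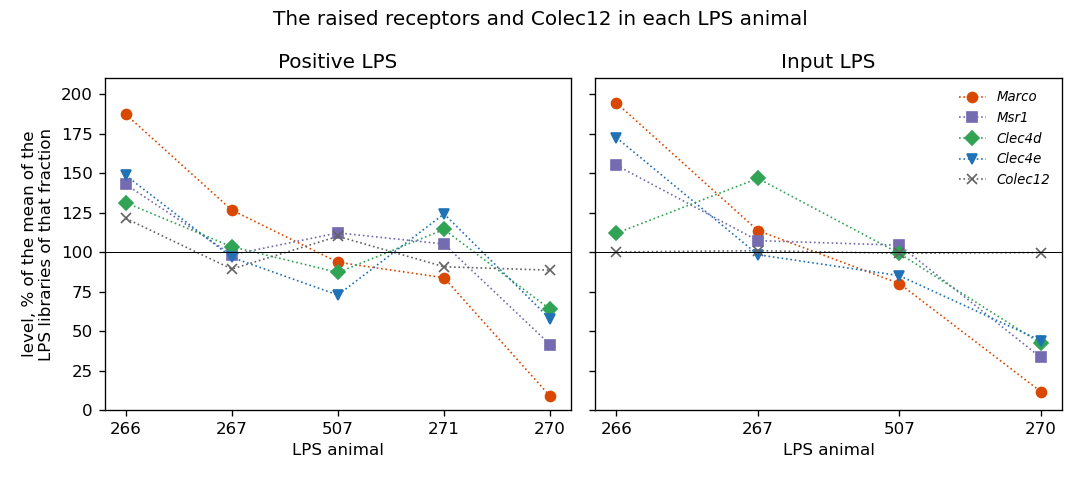
Level of Marco, Msr1, Clec4d, Clec4e and Colec12 in each LPS animal as a percentage of the mean of the LPS libraries of that fraction (Positive left, Input right), 1 point per library and dotted lines only to guide the eye. Animal 270 is lowest for the 4 raised genes in both fractions, most so for Marco, while Colec12 stays close to its mean in Input.

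Animal 270 was the lowest of the 5 Positive LPS libraries for all 9 genes, the lowered ones included, and for 7 of 9 in Input. The next library lay close for Colec12 (492 against 496), Clec7a (34.3 against 35.3) and Cd36 (59.4 against 63.7). For Olr1 the lowest values were below the floor. Over all 14803 tested genes animal 266 was the lowest Positive LPS library for 30.2% and animal 270 for 25.4%. Over the 2809 genes called raised, animal 270 was lowest for 41.2%. In Input, animal 270 was the lowest LPS library for 34.0% of all tested genes, the most of any animal. Its Positive library held 32710275 counts, the most of the Positive libraries. It had the lowest summed level in its group for 5 of the 9 cell type marker lists in Positive (border macrophage, neutrophil, endothelial, fibroblast and mural, and astrocyte) and for 7 of 9 in Input. Border macrophage markers summed to 8078 normalised counts in its Positive library, next to 8268 in animal 271 and 14166 to 17085 in the other 3, and neutrophil markers to 1212 against 1693 to 2307, while its microglial sum of 183691 lay within the range of the group. Much of the border macrophage sum and of the neutrophil sum came from 1 gene each. In Positive LPS libraries Stab1 had a mean of 7083, beside a mean border macrophage sum of 12617. Csf3r had a mean of 973 there, beside a mean neutrophil sum of 1887. The part of border macrophages, neutrophils or other listed cells in the low values of animal 270 was not tested.

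Colec12, on chromosome 18, encodes a membrane collectin that is grouped with the class A scavenger receptors and is known from endothelium and stroma. It was the only one of the 9 genes that was lower in Positive than in Input. Its normalised count was 784 to 1058 in Input PBS, 836 to 850 in Input LPS, 510 to 699 in Positive PBS and 492 to 674 in Positive LPS libraries. LPS groups overlapped PBS groups in both fractions, with log2 fold changes of -0.08 (95% interval -0.34 to 0.18) in Positive and -0.12 (-0.38 to 0.14) in Input. Positive over Input was -0.64 (SE 0.12, adjusted p = 3.65e-04, edgeR) in PBS animals and -0.60 (SE 0.12, adjusted p = 2.29e-04) in LPS animals. Most markers of fibroblasts and mural cells were lower in Positive than in Input. Of these, 6 of 8 were called lowered in PBS animals and 7 of 8 in LPS animals, against 18.8% and 25.8% of all tested genes. Endothelial markers were higher in Positive, with median log2 fold changes of 1.45 in PBS animals and 0.72 in LPS animals. Of these, 7 of 8 and 6 of 8 were called raised, against 21.0% and 27.6% of all tested genes. The cell source of Colec12 was not tested.

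Cd36 encodes a class B scavenger receptor and fatty acid translocase. Its Positive PBS libraries held 238, 205, 131 and 199 normalised counts in animals 268, 272, 273 and 506, and its Positive LPS libraries held 63.7, 82.9, 59.4, 68.5 and 71.4 in 266, 267, 270, 271 and 507. Every LPS library lay below every PBS library, and the log2 fold change was -1.48 (SE 0.25, adjusted p = 1.32e-04, edgeR). In Input the levels were 31.3 to 40.2 in PBS and 8.21 to 31.5 in LPS libraries, a log2 fold change of -0.68 that was not called (95% interval -1.33 to -0.03, adjusted p = 0.147, edgeR). The difference between the fractions was -0.81 (95% interval -1.65 to 0.03) and was not called, although leaving out the Input library of animal 270 gave -1.09 (adjusted p = 0.0381, edgeR). Endothelial cells also carry CD36, and the summed endothelial markers were 6497 to 10008 in Positive PBS and 5918 to 9905 in Positive LPS libraries. Of the 8 endothelial markers, 3 were called lowered by LPS in Positive (Flt1 -1.29, Kdr -0.85 and Tek -1.86 on the log2 scale) and 1 raised (Cldn5 0.51). The markers not called ran from -0.59 (Slco1a4) to 0.42 (Cdh5), and the median of the list was -0.47. Of all tested genes, 14.9% were called lowered and 19.0% raised in Positive. The part of endothelial cells in the fall of Cd36 was not tested.

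Olr1 encodes LOX-1, a receptor for oxidised low-density lipoprotein that by sequence belongs to the C-type lectins. It did not pass the filter. Its estimated counts were 1.00 to 4.25 in the Input PBS libraries, 0 to 2.25 in Input LPS and 0 to 4.00 in Positive PBS, all at or near the floor of 3 counts. In Positive LPS they were 12.0 in animal 266, 22.0 in 267, 12.2 in 271, 1.5 in 507 and 1.00 in 270. The groups overlapped, no fold is given, and without a filter the test of LPS in the Positive fraction gave an adjusted p of 0.0908 (edgeR).

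Clec4d (MCL) and Clec4e (Mincle) encode partner C-type lectins that bind mycobacterial glycolipid and use FcRγ. Clec4d held 7.61 to 14 normalised counts in Positive PBS, and 660, 520, 321, 575 and 438 in the Positive LPS libraries of animals 266, 267, 270, 271 and 507. Clec4e held 2.18 to 15.2 in Positive PBS, and 518, 337, 201, 433 and 254 in the same LPS animals. The treatments were far apart for both genes, and the order of the 5 animals was the same for both, from 266 through 271, 267 and 507 down to 270. The log2 fold changes were 5.52 (SE 0.35) for Clec4d and 5.30 (SE 0.46) for Clec4e, given without p-values because both genes entered the fit only through the Positive LPS group.

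In Input both genes were near the floor in PBS libraries, with 1.90 to 5.72 normalised counts for Clec4d and 1.91 to 6.19 for Clec4e. In LPS libraries Clec4d reached 14.8 to 51.5 and Clec4e 15.6 to 61.2. The log2 fold changes were 3.06 (SE 0.43) and 3.16 (SE 0.55), with adjusted p of 6.76e-05 and 5.49e-04 (edgeR). These p-values are no independent support for a rise in Input. Both genes were tested only through the Positive LPS group, and the Input LPS libraries came from the same animals. For Clec4d the fitted response was larger in the Positive fraction by 2.46 on the log2 scale (SE 0.63, adjusted p = 0.0243, edgeR), a p-value that is no support for the difference, since the gene was tested only through its high Positive LPS group. That call was lost without Input 272, Positive 272 or Input 506, the 3 of 17 single libraries that ended it (adjusted p from 0.0535 to 0.0874). For Clec4e the difference was 2.14 (SE 0.81) and was not called (adjusted p = 0.138, edgeR). It was called with the animal as a block (2.17, adjusted p = 0.0103, edgeR), by DESeq2 (2.13, adjusted p = 0.0257) and by limma-trend (2.58, adjusted p = 0.0122), under the same limit.

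Clec7a encodes dectin-1, a receptor for fungal beta-glucan that signals through its own tail. Its Positive PBS libraries held 151, 199, 132 and 209 normalised counts in animals 268, 272, 273 and 506. Its Positive LPS libraries held 41.7, 91.2, 34.3, 35.3 and 92.5 in animals 266, 267, 270, 271 and 507. The groups did not overlap, with animals 267 and 507 nearest the PBS range, and the log2 fold change was -1.55 (SE 0.37, adjusted p = 0.00263, edgeR). In Input, 1.82 to 16.5 normalised counts in PBS and 2.46 to 7.87 in LPS libraries overlapped, and the log2 fold change of -1.15 was not called (95% interval -2.47 to 0.17).

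Clec4n encodes dectin-2, a receptor for mannose-rich fungal walls that uses FcRγ. It held 119, 75.2, 135 and 125 normalised counts in the Positive PBS libraries of animals 268, 272, 273 and 506, and 69.8, 63.2, 44.5, 54.1 and 75.4 in the Positive LPS libraries of 266, 267, 270, 271 and 507. Only animal 507 reached into the PBS range, just above PBS animal 272. The log2 fold change of -0.88 was not called (95% interval -1.72 to -0.04, adjusted p = 0.0799, edgeR). It was called by DESeq2 (adjusted p = 0.0430), with the Positive libraries fitted alone (adjusted p = 0.00927, edgeR) and without the Input library of animal 506 (adjusted p = 0.0419, edgeR). In Input its estimated counts were 0 to 15 and no LPS change could be resolved (95% interval of the log2 fold change -2.65 to 0.63).

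**Figure D3:**
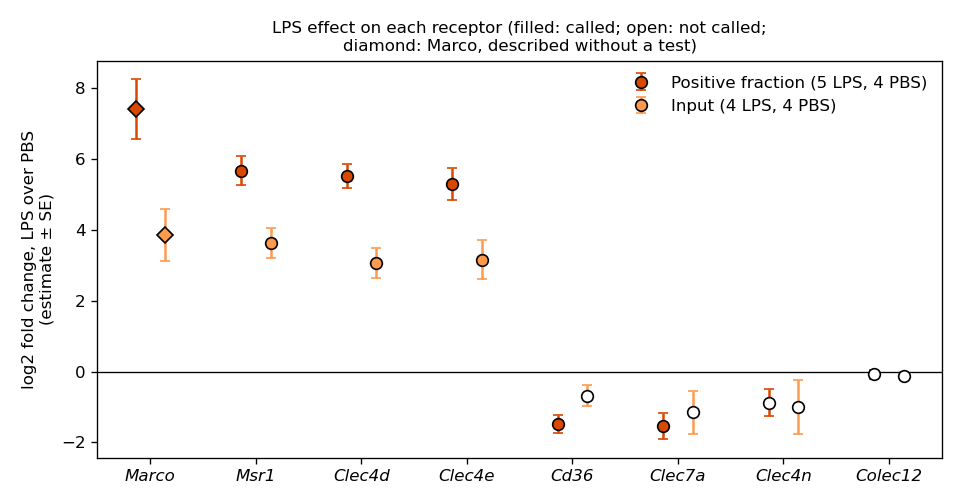
Fitted log2 fold change of LPS over PBS (estimate ± SE) for the 8 genes that passed the filter, in the Positive fraction (dark) and in Input (light), filled where called and open where not, with Marco as a diamond because it is described without a test. Msr1, Clec4d and Clec4e are called raised in both fractions, Clec4d and Clec4e under the limit given in the text. Cd36 and Clec7a are called lowered in Positive only, and the difference between the fractions was not called for either.

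Neighbours on chromosome 6, named for their position, did not share 1 direction. Clec4n (123229843 to 123247024), Clec4d (123262107 to 123275268) and Clec4e (123281789 to 123289871, opposite strand) follow each other in mm10, and their Positive log2 fold changes were -0.88, 5.52 and 5.30. Upstream of them Clec4a2, which encodes an inhibitory lectin, had 2.64 (adjusted p = 6.79e-07, edgeR), while Clec4b1 and Clec4b2 did not pass the filter. Around Clec7a (129461591 to 129472777), Clec12a had 0.14 and Clec1a -0.60, neither called, against -1.55 for Clec7a itself, and Olr1 follows at 129485247 to 129507165. The Clec4 genes are relatives, and how reads that match more than 1 of them were counted was not tested.

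In PBS animals Clec4n and Clec7a had the highest Positive over Input of the 9 genes, and Clec4d and Clec4e came after Cd36 and Msr1 (plot of enrichment by animal). The log2 fold changes were 4.21 for Clec4n, 4.04 for Clec7a, 2.44 for Cd36, 1.89 for Msr1, 1.38 for Clec4d and 1.16 for Clec4e, with SEs of 0.53, 0.47, 0.28, 0.43, 0.52 and 0.68. Of the 7 tested genes other than Marco, 5 were called raised and 1, Colec12, lowered, against 21.0% and 18.8% of all tested genes (3113 raised and 2785 lowered, and 2283 and 3890 with limma on the deposited log2 values). Clec4n and Clec7a differed by less than their SE, as did Clec4d and Clec4e. The call for Clec4d (adjusted p = 0.0331, edgeR) rested on 7.61 to 14 normalised counts in Positive and 1.90 to 5.72 in Input and was lost in 4 of 17 fits without 1 library (Input 268, Positive 268, Input 273 and Positive 506). Clec4e was not called (adjusted p = 0.165, edgeR), but was with the animal as a block (1.07, adjusted p = 0.0352, edgeR). Both genes were tested only through the Positive LPS group and did not pass the filter in either PBS group. Their p-values here, and Clec4d among the 5 called raised, carry that limit.

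In LPS animals the order changed. Positive over Input was 4.34 for Clec4n, 3.94 for Msr1, 3.84 for Clec4d, 3.64 for Clec7a, 3.30 for Clec4e and 1.63 for Cd36 on the log2 scale, with SEs of 0.57, 0.37, 0.29, 0.51, 0.38 and 0.28. Of the 7 genes, 6 were called raised, Clec4d and Clec4e under the limit given above, and 1, Colec12, lowered, against 27.6% and 25.8% of all tested genes (4091 and 3817, and 3362 and 4828 with limma on the deposited log2 values). Within animals, Msr1 was 3.13 to 4.43 times higher in Positive than in Input of the PBS animals. In the LPS animals Msr1 was 14 to 19.1 times higher, without overlap. Clec4d was 1.48 to 4.81 times higher in PBS and 10.1 to 21.7 times in LPS animals. Its LPS ratios hold the Positive LPS values through which it was tested, so their separation is no support. Cd36 was 4.17 to 6.89 times higher in PBS animals and 2.02 to 3.50 times in 3 LPS animals, with 7.23 in animal 270, whose Input library held 10.0 estimated counts of Cd36.

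**Figure D4:**
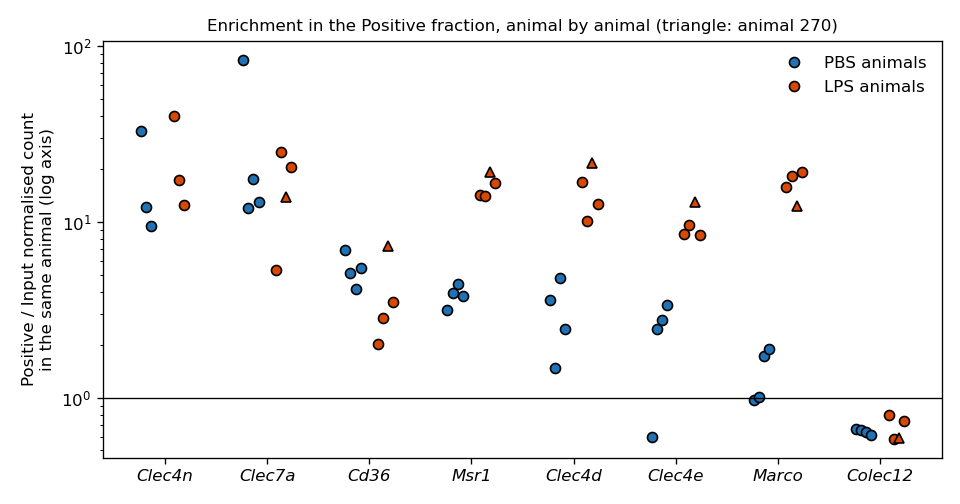
Positive over Input normalised count in the same animal (log axis) for 8 genes, with PBS animals in blue, LPS animals in orange and animal 270 as a triangle; animals with an Input count of 0 (2 for Clec4n) have no point, and animal 271 has no Input library. Marco moves from 0.970 to 1.90 in PBS animals to 12.3 to 19.1 in LPS animals, and Colec12 lies below 1 in every animal.

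Genes of the same families and of the signalling route were read from lists that were drawn up with earlier results known (plot of related genes). Of 13 other scavenger receptor genes tested, 4 were called raised and 1 lowered by LPS in Positive, and 3 raised and 0 lowered in Input, with medians of 0.09 and 0.22 on the log2 scale beside 0.01 and 0.00 over all genes. The shares over all tested genes, which hold for each list here, were 19.0% raised and 14.9% lowered in Positive and 7.16% and 5.26% in Input, so that the 4 and 1 of 13 in Positive lie near them. Cxcl16, which encodes a membrane-bound chemokine that also takes up oxidised lipoprotein, rose from 570 ± 54.2 (SD, n = 4) to 5000 ± 1213 (SD, n = 5) in Positive, by 3.13 on the log2 scale (adjusted p = 2.26e-08, edgeR). Scara5, a ferritin receptor of stromal cells, rose by 2.12 in Positive and 2.09 in Input, and it was lower in Positive than in Input of both treatments by its means (18 and 33.7 in PBS, 78.9 and 144 in LPS). Scarf2 came next by size in Positive, at 0.97 (adjusted p = 0.00992, edgeR), and Cd68, a lysosomal macrophage protein, next in Input, at 0.66 (adjusted p = 0.00559, edgeR).

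The other C-type lectin receptors moved both ways. Of 14 tested, 5 were called raised and 6 lowered in Positive, and 4 raised and 1 lowered in Input, with medians of -0.51 and -0.18, where 19.0% and 14.9% of all tested genes were called in Positive and 7.16% and 5.26% in Input. Clec4a1, which shares the Clec4 cluster's family, rose from 181 ± 54.4 (SD, n = 4) to 3961 ± 1243 (SD, n = 5) in Positive, by 4.45 on the log2 scale (adjusted p = 2.26e-08, edgeR), and by 2.22 in Input, where Clec4a2 rose by 1.92. Cd209a and Cd209b, relatives of DC-SIGN, had log2 fold changes of -3.84 and -4.15 in Positive (adjusted p = 1.12e-05 and 2.26e-06, edgeR), from 163 ± 36.2 to 11.1 ± 11.3 and from 113 ± 58.1 to 6.10 ± 4.11. Cd209a also fell in Input, by 3.67 on the log2 scale (adjusted p = 0.0119, edgeR), from 12.2 to 0.897. Mrc1, the mannose receptor, is both on this list and among the border macrophage markers, of which 4 of 8 were called lowered and 1 raised in Positive, and Mrc1 fell by 1.33 on the log2 scale there.

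Of the 14 signalling genes of the lectins tested, 10 were called raised in Positive and 7 in Input and none lowered, with medians of 0.82 and 0.47 on the log2 scale, where 19.0% of all tested genes were called raised in Positive and 7.16% in Input. Fgr, a Src-family kinase, rose from 48.8 ± 11.6 (SD, n = 4) to 2082 ± 424 (SD, n = 5) in Positive, by 5.41 (adjusted p = 5.52e-11, edgeR), and by 2.67 in Input. Ptpn6, a phosphatase that restrains this signalling, rose by 1.66 in Positive and 1.56 in Input, and Fcer1g, the adaptor that Clec4d, Clec4e and Clec4n share, by 1.33 and 1.18. Syk, the kinase that acts on this adaptor, rose in Positive by 0.86, and Card9, Bcl10 and Malt1 by 0.81, 0.57 and 0.83, the latter 4 named for their role.

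**Figure D5:**
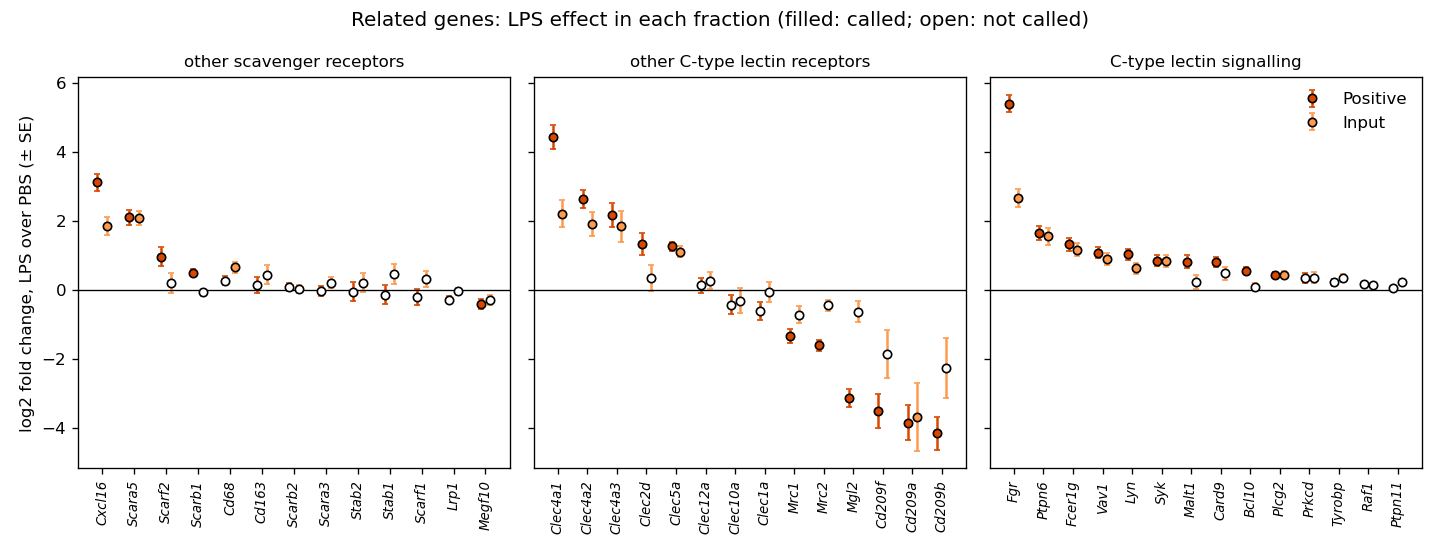
Fitted log2 fold change of LPS over PBS (± SE) for 13 other scavenger receptor genes, 14 other C-type lectin receptor genes and 14 C-type lectin signalling genes, in Positive (dark) and Input (light), filled where called. Signalling genes lie at or above 0, while the lectin receptors run from Clec4a1 at 4.45 to Cd209b at -4.15.

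The genes whose pattern over the 17 libraries was most like that of Marco were found by the root mean square difference of centred log2(normalised count + 1) among 12607 tested genes with a mean of at least 100. They were Saa3 (0.72), which encodes an acute-phase protein, Pilrb1 (0.74), Irg1 (0.84), which encodes the enzyme that makes itaconate, Ccl5 (0.88), a chemokine, and Fpr2 (0.89), a formyl peptide receptor. Animal 270 was the lowest Positive LPS library for all 5. The matching favours this, since Marco itself is lowest in that library, so it is no separate finding. Saa3 spread over 22997 to 74189 in the Positive LPS libraries, less widely than Marco. Msr1 was nearest to Cd72 (0.45) and to Clec4d (0.46), Clec4d to Fgr (0.37) and AW112010 (0.39), and Clec4e to Fgr (0.60) and Saa3 (0.67). Of the lowered genes, Cd36 was nearest to Epb4.1l2 (0.36) and Hexa (0.40) and Clec7a to Tbxas1 (0.54) and Olfml3 (0.58), while Clec4n was nearest to Ptafr (0.74) and Bin2 (0.83) and Colec12 to Dnmt3a and Unc80 (both 0.08).

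Markers of peripheral myeloid cells did not share 1 direction with LPS. Of all tested genes, 19.0% were called raised and 14.9% lowered in Positive, and 7.16% and 5.26% in Input. Of 8 neutrophil markers tested, 5 were called raised and 1 lowered in Positive and 6 raised in Input, while the summed list was 1950 to 2296 in Positive PBS and 1212 to 2307 in Positive LPS libraries, and Ly6g was listed at 0 in all 17 libraries. Of 4 monocyte markers tested, 1 was called raised and 2 lowered in Positive, and 0 either way in Input. The summed list was 1194 to 2937 in Positive PBS and 764 to 1764 in Positive LPS libraries. Fn1 made up much of it, with means of 1475 and 855 beside mean sums of 1705 and 1341. The sum of the 10 microglial markers was 192604 to 236573 in Positive PBS and 155962 to 215955 in Positive LPS libraries, and 5 of them were called lowered and 2 raised. Of the neutrophil markers tested, S100a8 had the largest log2 fold change in Positive, at 4.73. It was at 5.71 to 24.0 in Positive PBS libraries and at 167 to 600 in Positive LPS libraries. The neutrophil marker called lowered in Positive was Csf3r (-0.91), and Mmp9 (-0.33) and Cxcr2 (0.02) were not called. Csf3r made up much of the neutrophil sum, with means of 1828 in Positive PBS and 973 in Positive LPS beside mean sums of 2163 and 1887. Of the 8 markers tested, 4 were called lower in Positive than in Input in each treatment, 2 higher in PBS and 1 in LPS animals. The shares over all tested genes were 18.8% lower and 21.0% higher in PBS animals, and 25.8% and 27.6% in LPS animals. The part of infiltrating cells in the rise of Marco, Msr1, Clec4d and Clec4e was not tested.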

How the data were processed

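Polyadenylated RNA was sequenced as strand-specific paired reads of 50 bases. The deposited estimated counts per gene and log2 values were made by the authors in Strand NGS on mm10, with DESeq normalisation of the log2 values per the labels and the methods. Of the nonzero estimated counts, 81.7% were not whole, within 0.001, and they were rounded first. Counts were scaled by median-of-ratios size factors (0.766 to 1.32) over 17 libraries. Genes with over 20 normalised counts in every library of at least 1 group were tested (14803 of 36172) with edgeR 4.0.16 in R 4.3.3 (glmQLFit and glmQLFTest, 1 mean per group, 13 residual degrees of freedom). The SE is the log2 fold change over the root of F, and 95% intervals use the t quantile at 13 degrees of freedom. Alternatives used DESeq2 1.42.0, limma 3.58.1 and those named below. The scripts were tested on simulated data. The floor of 3 counts covers counting error only.

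Input and Positive libraries came from the same animals, and their deviations from the group means correlated in all 8 animals with both (r from 0.177 to 0.531), so the animal was used as a block in an alternative. The members and lists were chosen with earlier results of these data known. Named genes were the 9 members, the up to 3 called genes of largest fold per related list and LPS comparison, the 5 genes most like Marco and the 2 most like each other member. Chil3 was not matched by symbol, and 1 signalling gene is not reported here. Promoters are from RefSeq. Msr1 and Clec4n are named only.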

Additional observations from a re-analysis of the deposited data

Results flagged for a closer look

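The LPS effect on 2 genes was called different between the fractions by the test of the difference itself. For Msr1 the effect was larger in the Positive fraction than in Input by 2.05 on the log2 scale, and for Clec4d by 2.46 (edgeR, adjusted p = 0.0288 and 0.0243). The call for Msr1 was lost in 4 of 17 fits without 1 library and that for Clec4d in 3 of 17, and Clec4d was tested only through the Positive LPS group where it is high, so its p-value is no support. Msr1 had a higher Positive over Input ratio in all 4 LPS animals with both libraries than in any of the 4 PBS animals. Clec4d did too, but its LPS ratios hold the Positive LPS values through which it was tested, so they are no support. By Dixon's test at 95%, 0 of the 32 groups of 4 or 5 libraries formed by the 8 genes other than Marco held a library that stood apart, on the normalised count or, a scale added after seeing the data, on log2(normalised count + 1), where chance alone marks about 1 in 20 and groups this small can miss one. Marco was not tested, because its spread was part of the choice.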

How the results depend on the processing

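The number of genes called among the 7 tested other than Marco stayed within 1.5 times of its value in each comparison, with these exceptions. In Input, 1 gene was called in place of 3 when only the Input libraries were fitted, because Clec4d and Clec4e then did not pass the filter. For the difference between fractions, 0 were called in place of 2 without animals 506 and 507, 1 with the deposited log2 values and limma, and 0 to 3 when single libraries were left out; apart from the fewer samples, the cause was not tested. The highest over lowest Marco library was 2.24 to 21.3 when single Positive LPS libraries were left out, the low value without animal 270, and 21.8 and 22.1 by other scalings. Without both libraries of animal 270, an alternative chosen after seeing the data, the number of genes called was the same in all 5 comparisons. Directions reversed only for values not called. The difference between fractions for Clec4n (0.13) was -0.32 with limma-trend on log2 CPM, -0.10 with the deposited log2 values, -0.18 without animal 270 and -0.74 to 0.83 without single libraries. That of Colec12 (0.04) was -0.02 without animals 506 and 507 and -0.04 to 0.13 without single libraries, and its Positive LPS change (-0.08) was -0.15 to 0.02.

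With the animal as a replicate block, Clec4e gained calls in the difference between fractions (2.17) and in Positive over Input of PBS animals (1.07), and no other call among the 7 changed. Both calls carry the limit given above for Clec4e. Over all genes the block gave 1318 raised and 597 lowered genes for the difference, against 808 and 210, and leaving out animals 506 and 507 gave 264 and 59, and 673 and 410 for LPS in Input against 1060 and 779. Using all 18 libraries, or the deposited log2 values, gave a median Positive over Input of all genes of -0.11 to -0.14, where the fit used here gave -0.00 (PBS) and -0.03 (LPS), and the direction of Colec12 held there. Depth limits Olr1 in every group, and Clec4n, Clec7a, Clec4d and Clec4e in Input, where the PBS libraries held 0 to 16.6 estimated counts.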
